A study of Mus musculus with 16 samples.

Results

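The cells described here are endothelial cells of the mouse kidney that carry transcripts of Plvap, the gene of the diaphragm protein that spans fenestrae and caveolae, and none of Ehd3, which marks glomerular endothelium. They were chosen by their own counts of unique molecular identifiers (UMIs). A barcode was kept with 200 to 7000 detected genes, at most 20% of UMIs from mitochondrial genes, at least 2 Plvap UMIs, at least 1 UMI of Pecam1 plus Cdh5, and 0 UMIs of Ehd3, Pdgfrb, Ptprc, Cubn and Epcam. This gave 786 cells, which were 1.48% of 53253 barcodes that passed the quality limits, 8.58% of 9164 endothelial barcodes (the same limits on Pecam1, Cdh5 and the other lineages, with no condition on Plvap or Ehd3) and 0.675% of 116439 deposited barcodes. At the edge of the rule, 181 of the cells had exactly 2 Plvap UMIs, and 379 further barcodes that met every other condition had exactly 1. The levels of Plvap, Pecam1, Cdh5 and the 5 genes set to 0 follow from this choice and are not results.

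The study compared diabetic nephropathy (DN) with control in 16 single-cell RNA sequencing libraries of kidney, 1 per mouse. DN mice were BTBR ob/ob, which lack functional leptin, the satiety hormone of fat cells, and become obese and hyperglycaemic. Control mice were BTBR +/+. Each genotype comprised females and males at 6 and at 12 weeks of age, with 2 mice for each combination, and by the study's methods all of them also carried a Cre-driven fluorescent podocyte reporter. The suspensions were enriched for glomeruli on a Percoll gradient after the papilla had been removed, so the vessels seen here are those that stayed in a preparation made for another compartment. Lep, the mutated gene, had 0 UMIs in all 786 cells and gives no check of the labels. The libraries of the 4 female mice with replicate number 1 held 10510855 to 21728793 UMIs and shared cell barcodes with each other (0.597% to 1.43% per pair) more often than the rest, and the other 12 held 83410397 to 125551519 UMIs and shared 0.109% to 0.393% per pair. Pairs with 1 library of each kind shared at most 0.0589%. The study's methods name 2 kit versions without saying which libraries used which, and the labels give none. The split by shared barcodes and depth is called the chemistry here (shorter and longer barcode list), is inferred from the files, coincides with the replicate number in females, and enters every fit as a term.

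The kidney has several capillary beds in series. Blood leaves the glomerular capillaries through efferent arterioles and enters either the cortical peritubular capillaries, which are fenestrated, closed by diaphragms and return the fluid that tubules reabsorb, or the descending vasa recta, which carry aquaporin 1 and the urea transporter UT-B into the medulla. Ascending vasa recta and venules are again fenestrated and drain the tissue. Glomerular capillaries have fenestrae without diaphragms and little Plvap, and for that reason Plvap is widely used to tell peritubular from glomerular endothelium.

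The libraries gave very unequal numbers of these cells. Control females gave 58 and 43 cells at 6 weeks and 47 and 4 at 12 weeks, and control males gave 126 and 36 at 6 weeks and 81 and 10 at 12 weeks. DN females gave 78 and 25 at 6 weeks and 79 and 7 at 12 weeks, and DN males gave 64 and 50 at 6 weeks and 74 and 4 at 12 weeks. In all, 405 cells came from control and 381 from DN mice, 480 from 6-week and 306 from 12-week mice. The second 12-week library of each sex and genotype was poor in them, with 4 to 10 cells, against 47 to 81 in the first. These libraries were poor in endothelium of every kind, with 63 to 179 endothelial barcodes against 499 to 1386, and the share of Plvap cells among those barcodes overlapped (3.96% to 7.87% and 5.84% to 10.9%). The cells held 5143185 UMIs together, with a median of 4064.5 per cell. Counts were summed per library, and the 13 libraries with at least 10 cells (7 control and 6 DN) entered the gene tests with 89456 to 1006855 UMIs each. Control female replicate 2, DN female replicate 2 and DN male replicate 2 at 12 weeks, with 15 cells together, were left out of those fits. The 12-week comparison therefore rests on 3 control and 2 DN libraries, and all p-values measure the spread between mice.

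**Figure D1:**
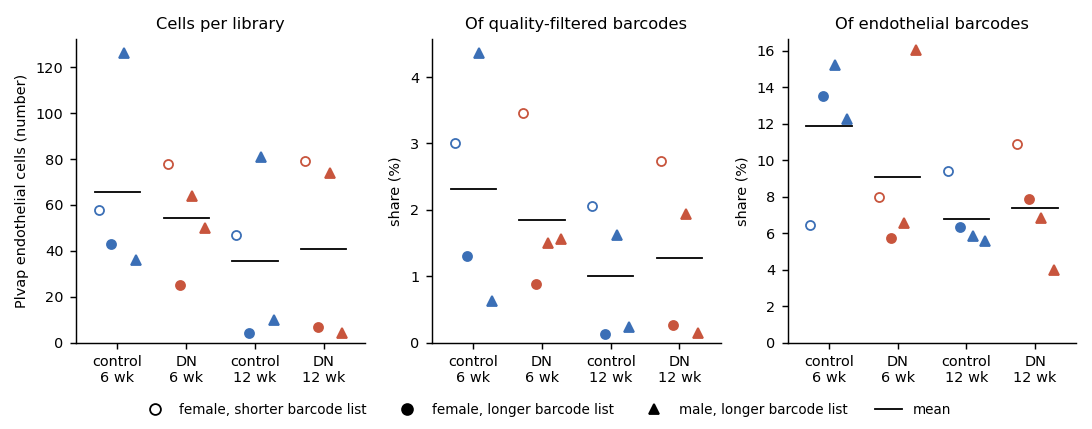
Number of Plvap endothelial cells per library (left), and their share in percent of quality-filtered (middle) and of endothelial barcodes (right), by genotype and age; each point is 1 of 16 libraries, shape and fill give sex and chemistry, and lines are means. The genotypes overlap in all 3 panels, and at 12 weeks the 4 libraries with 4 to 10 cells lie below those with 47 to 81 in number and in share of quality-filtered barcodes, but overlap them in share of endothelial barcodes.

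The share of these cells was not found to differ between genotypes. Among quality-filtered barcodes it was 1.67% ± 1.45 in control and 1.56% ± 1.15 in DN (SD, n = 8 each; exact permutation test within sex and age, two-sided, p = 0.883, smallest possible p 0.00154). Among endothelial barcodes it was 9.33% ± 3.86 in control and 8.23% ± 3.73 in DN (exact permutation test, p = 0.491). At 6 weeks the endothelial share was 11.9% in control and 9.08% in DN (exact permutation test, p = 0.444, smallest possible 0.0556), and at 12 weeks 6.80% and 7.39% (exact permutation test, p = 0.778). In a further setting the 43006 quality-filtered barcodes with at least 1000 UMIs were thinned to 1000 each, and shallower ones were dropped. The marker conditions were applied after thinning, so barcodes that failed a limit of 0 UMIs at full depth could enter. Of this different set 366 cells met the rule, and both differences turned to the other side. The share of endothelial barcodes was 4.06% in control and 5.69% in DN (exact permutation test, p = 0.154). No direction can be read from these shares.

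The markers of vascular beds show a mixture. All 4 descending vasa recta genes had higher mean levels than in glomerular endothelium, while the 5 cortical peritubular and the 12 venous and medullary genes lay on both sides of it. Levels are given as CPM, the UMI count of a gene scaled to 1000000 UMIs of the cell set in its library, averaged over the 13 libraries, and are compared only for 1 gene between cell sets. The comparison sets were 4974 glomerular endothelial cells (at least 2 Ehd3 UMIs, 0 Plvap) and 1136 endothelial cells with 0 Plvap and 0 Ehd3 UMIs and at least 2 UMIs of the arterial genes Fbln2, Gja5 and Sox17. Because all 3 sets were cut from endothelial barcodes by measured genes, these levels are descriptions without a test.

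Igfbp3, a binding protein of insulin-like growth factors found in peritubular endothelium, stood at 628 CPM in the Plvap cells, 26.5 in the glomerular and 625 in the arterial set. It was seen in 53.9% of the Plvap cells and in 2.39% of the glomerular cells, whose median depth was similar (3648.5 UMIs). Fabp4, a fatty acid chaperone of capillary endothelium, stood at 5751, 946 and 1874 CPM in the 3 sets. Kdr (VEGF receptor 2), in contrast, was at 335 CPM against 2284 in glomerular cells, and Igfbp5 at 479 against 3436. Flt1 was seen in 85.1% of the cells of both sets, and Npr3, the clearance receptor of natriuretic peptides, in 3.05% against 0.342%. Of the peritubular list, Igfbp3 and the rare Npr3 were thus above glomerular cells, and Kdr and Igfbp5 below them.

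The descending vasa recta genes differed in how far they stood above glomerular cells. Slc14a1, which encodes UT-B, had 566 CPM in the Plvap cells and 2.37 in glomerular cells, Aqp1 had 2071 and 173, and the actin-severing protein gene Scin had 434 and 5.41. Adipor2, an adiponectin receptor and the remaining gene of the list, had 167 and 82.6 CPM. Slc14a1 was seen in 23.4% of the Plvap and 0.201% of the glomerular cells, Scin in 33.1% and 1.05%, and Adipor2 in 42.7% and 28.4%, but Aqp1 in 30.2% and 36.3%, the opposite direction to its mean level. Akr1b3, the aldose reductase that makes sorbitol from glucose and a member of another list, had 1826 and 109. Slc14a1, Aqp1, Scin and Akr1b3 were often seen in the same cells. Of the 184 cells with a Slc14a1 UMI (23.4%), 91.3% had Aqp1, 91.8% Scin, 81.0% Akr1b3 and 64.1% the tight junction gene Cldn5, whereas of the 602 cells without it 11.5%, 15.1%, 32.4% and 14.6% had them. The reverse held for Rgcc, a cell cycle regulator of capillary endothelium (7.61% of cells with Slc14a1, 51.2% without), Pi16 (12.0% and 59.3%) and Igfbp5 (13.0% and 44.9%). The cells with Slc14a1 were also deeper, with a median of 7385 against 3326 UMIs. They made up 8.97% to 17.02% of the cells in the 4 shorter-list libraries and 18.3% to 70.0% in the other 9 of the 13, and the parts of depth and chemistry in these pooled shares were not tested.

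The 12 venous and medullary genes gave no common direction, with 6 above and 5 below the glomerular level and 1 at 0 in both. Ackr1, the chemokine-binding receptor of venules, had 0 UMIs in these and in the glomerular cells. Over 786 cells a count of 0 allows a share of up to 0.382% of cells with a UMI (counting error only), which does not limit the share of cells that express it. Higher in the Plvap cells were Gas6, a ligand of TAM receptors (416 against 290 CPM, seen in 72.4% and 57.5% of cells), Igf1 (25.6 against 1.73 CPM, 5.98% and 0.643%) and Vwf, von Willebrand factor (26.2 against 5.43 CPM, 3.18% and 0.382%). So were the rarer Tll1 (2.93% and 0.0201% of cells), Selp, which encodes P-selectin (0.509% and 0.141%), and Fxyd6 (0.509% and 0.342%). Lower were Ephb4, the venous ephrin receptor (112 against 155 CPM, seen in 41.0% and 41.8% of cells), Nrp2 (83.6 against 110, 30.8% and 32.1%), and Nr2f2, the venous identity factor (48.0 against 63.2, 20.0% and 16.8%). Also lower were Cd36 (46.9 against 142 CPM, 14.8% and 32.2%) and Bgn, which encodes biglycan (51.8 against 104, 9.29% and 22.4%). The list as a whole therefore did not separate these cells from glomerular endothelium, the venous part of the label could not be checked with it, and the cells are called Plvap endothelial cells below. Of the lymphatic markers, Lyve1 was at 0 and Prox1 at 6.83 CPM. Summed over 6 lymphatic genes, the level was 27.6 to 179 CPM in control and 50.7 to 72.1 in DN. At the median this was 191% and 289% of the level over all barcodes of the same libraries.

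Arterial genes were often seen together in a further group of cells, which overlapped the cells with Slc14a1. Mgp (matrix Gla protein) had 581 CPM in the Plvap cells, 130 in glomerular cells and 3065 in the arterial set, and Fbln5 (fibulin 5) 387, 65.4 and 963. Mgp was seen in 87 cells (11.1%), of which 88.5% had Fbln5, 73.6% Cldn5 and 16.1% Vwf, against 37.5%, 20.3% and 1.57% of the other 699. Genes of other beds were also more often seen in the cells with Mgp: Aqp1 (69.0% against 25.3%), Scin (66.7% and 28.9%), Slc14a1 (35.6% and 21.9%) and Pi16 (60.9% and 46.6%). Igfbp5 (19.5% and 39.6%) and Rgcc (18.4% and 43.8%) were less often seen in them. These cells were deep, with a median of 11913 UMIs against 4064.5 over all Plvap cells, and the part of depth in these shares was not tested. Glomerular markers outside the rule were low but not all absent: Gata5 had 1.20 against 208 CPM, Plat (tissue plasminogen activator) 222 against 6232, and Pi16 437 against 1490. Each library thus summed several kinds of endothelial cell, and for any gene of such a subset a change in the mixture and a change in level per cell cannot be told apart in the sums.

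**Figure D2:**
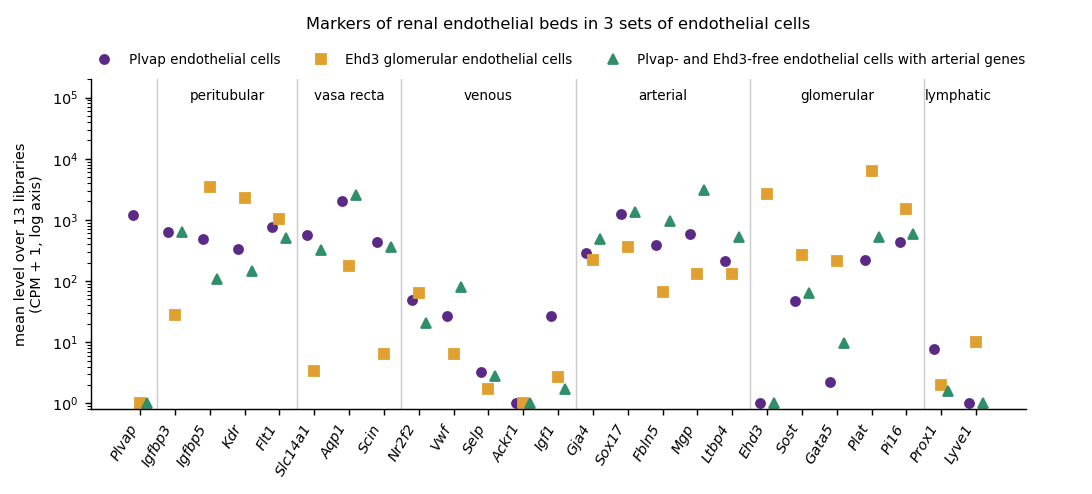
Mean level over 13 libraries (CPM + 1, log axis) of markers of renal endothelial beds in Plvap endothelial cells (circles), glomerular endothelial cells (squares) and the arterial set (triangles). Slc14a1, Scin and Igfbp3 stand far above the glomerular set in the Plvap cells, and Ackr1 and Lyve1 lie at 0 in them.

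Transcripts of other cell types were present, at levels that differed between the lists. The summed level of the 14 proximal tubule genes ranged from 275 through a median of 1029 to 2007 CPM in control and from 307 through 612 to 877 in DN, where all barcodes of the same libraries had medians of 15028 and 10050. The immune list was at most 27.6 CPM in any library, and 6 of its 11 genes were at 0. The mural list ranged from 13.8 to 135 CPM and the podocyte list from 45.9 to 165. The podocyte list had similar medians in these cells, 116 CPM in control and 114 in DN, where all barcodes had medians of 512 and 192. At the median it stood at 25.2% of its level over all barcodes in control and 59.9% in DN. The loop, distal tubule and collecting duct list ranged from 140 to 426 CPM in control and 95.2 to 912 in DN. Its median share of the level over all barcodes was 4.70% and 3.74%. Red cell genes were at most 22.0 CPM in DN but reached 8345 in 1 control library. Genes of the immediate early and dissociation response ranged from 4060 to 7549 CPM in control (median 5994) and 4807 to 8687 in DN (median 6371).

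Genotype was tested with edgeR's quasi-likelihood test on the summed counts, with sex within age and the chemistry as terms and Benjamini-Hochberg adjustment over 7447 genes. Averaged over both ages, 31 genes passed an adjusted p of 0.05, which is 0.416% of those tested. Of them, 23 rose in DN (0.309%) and 8 fell (0.107%). The genes that rose include receptors and signal genes of capillary endothelium (Kdr, Eng, Ramp3), fatty acid handling genes (Fabp4, Fabp5, Mgll), a secreted inhibitor of Wnt signalling (Sost), a protease inhibitor (Serpine2) and a small heat shock protein (Cryab). The median log2 fold change over all genes was 0.01. The count depended on single libraries: it was 0 without DN male 12 weeks replicate 1, 4 without either female 12-week library, 15 without either female 6-week replicate 1, 20 without control male 6 weeks replicate 1 or control male 12 weeks replicate 2, and 70 and 71 without the control and DN female 6 weeks replicate 2. It was 1 (Sost) in a fit without the chemistry term and 2 with only the 12 longer-list libraries. With the replicate number as a block it was 85, though the numbers were not taken as pairs. Of the 31 calls, 11 were lost in more than 12 of the 24 or 25 alternatives run for each gene: Jup (19), Adamts1 and Ctla2a (18 each), Thbs2 (16), Nes and Nuak1 (15 each), Ankrd37, Marcksl1, Ptgs1 and Tspan8 (14 each) and Ltbp4 (13). The other 20 were lost in 1 to 11.

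The 4 genes on which most of the following turns are shown here by the 250 bases before their annotated start, as RefSeq places it. Sost lies in GRCm38 at chr11:101962458-101967015, Rgcc at chr14:79288756-79301645, Serpine2 at chr1:79794197-79861180 and Kdr at chr5:75932827-75978458. All are protein coding and on the minus strand, and the promoter windows, from RefSeq on GRCm38.p6, are chr11:101967016-101967265, chr14:79301636-79301885, chr1:79858666-79858915 and chr5:75978456-75978705. The gene positions are the whole spans in GENCODE, and the RefSeq start need not be their outer end. The Serpine2 window lies inside the span printed for that gene and belongs to a start further downstream. Capitals mark a match to AGGAAG or CGGAAG, core words of sites for ETS factors, the family to which the endothelial regulators Erg and Fli1 belong, searched on both strands.
Sost: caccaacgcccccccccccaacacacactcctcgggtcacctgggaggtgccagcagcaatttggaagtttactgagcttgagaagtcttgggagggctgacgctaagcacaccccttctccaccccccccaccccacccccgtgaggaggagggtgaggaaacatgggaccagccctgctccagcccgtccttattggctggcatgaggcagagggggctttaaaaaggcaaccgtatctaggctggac
Rgcc: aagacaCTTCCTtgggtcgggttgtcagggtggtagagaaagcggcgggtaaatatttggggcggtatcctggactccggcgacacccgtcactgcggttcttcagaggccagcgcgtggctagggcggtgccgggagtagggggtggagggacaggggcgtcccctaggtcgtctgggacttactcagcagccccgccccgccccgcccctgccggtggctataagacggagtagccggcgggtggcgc
Serpine2: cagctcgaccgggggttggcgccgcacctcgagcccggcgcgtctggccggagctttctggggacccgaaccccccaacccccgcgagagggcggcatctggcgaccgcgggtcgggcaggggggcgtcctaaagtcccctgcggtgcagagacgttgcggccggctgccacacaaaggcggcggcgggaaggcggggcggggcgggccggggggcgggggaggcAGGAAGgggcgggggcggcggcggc
Kdr: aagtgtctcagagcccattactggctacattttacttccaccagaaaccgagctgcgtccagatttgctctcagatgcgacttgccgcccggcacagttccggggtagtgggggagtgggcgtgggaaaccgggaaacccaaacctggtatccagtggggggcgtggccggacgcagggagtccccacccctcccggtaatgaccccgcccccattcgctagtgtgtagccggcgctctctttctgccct
Rgcc held 1 match on the opposite strand, beginning 244 bases before the start, and Serpine2 held 1 on the gene's strand, 25 bases before it. Sost and Kdr held none in this window. A match was held by 39.2% of all 32851 promoters listed and by 9 of the 20 genes (45%) that rose in DN and have an entry. These letters say nothing about binding.

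Sost, which encodes sclerostin, a secreted antagonist of Wnt signalling known best from bone, showed the largest rise. In control it ranged from 0 through a median of 6.90 to 38.2 CPM (n = 7), and in DN from 32.6 through 74.5 to 193 (n = 6). The highest control library, female 12 weeks replicate 1, lay above the lowest DN library, male 6 weeks replicate 1, and the groups were otherwise apart. How common such a near separation is among all tested genes was not counted. The log2 fold change was 3.04 ± 0.35 (SE, edgeR adjusted p = 0.000361), with 2.76 ± 0.41 at 6 weeks (edgeR adjusted p = 0.0125) and 3.32 ± 0.57 at 12 weeks (edgeR adjusted p = 0.0515). The 167 DN UMIs came from 58 of the 381 cells, with at most 16 in 1 cell. Without DN male 12 weeks replicate 1 the edgeR adjusted p of the averaged effect was 0.0827, the one alternative of 24 in which the call was lost.

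Sost is also a glomerular endothelial gene, at 266 CPM in the glomerular set against 45.6 in the Plvap cells. In glomerular cells it rose by 1.66 ± 0.31 on the log2 scale (edgeR adjusted p = 0.00722), from a mean of 151 to 399 CPM. The effect in Plvap cells was larger by 1.48 ± 0.33 (edgeR adjusted p = 0.0242, on the log2 scale), a call that was lost in 6 of 18 alternatives and had an edgeR adjusted p of 0.228 without DN male 12 weeks replicate 1. All other barcodes of the 13 libraries had means of 13.9 CPM in control and 49.6 in DN. How far Sost from other cells entered these sums was not tested. Gata5, another glomerular gene but a rare one here, had a median of 0 in control and 1.02 CPM in DN. Of the 5 glomerular genes tested, Sost included, 3 had estimates above 0 at 6 weeks (median 0.02) and 4 at 12 weeks (median 1.06).

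Rgcc, a complement-induced regulator of the cell cycle, had 911 and 106 CPM in control females at 6 weeks and 144 and 120 in control males. DN females had 1979 and 213 and DN males 360 and 436 at that age. At 12 weeks control libraries had 505, 180 and 22.4 and DN libraries 1091 and 713. Each DN library stood above the control libraries of its own sex, age and chemistry, but these sets held few libraries. How many of all tested genes did the same was not counted. Rgcc also differed between the chemistries. Its means were 708 and 1535 CPM in control and DN of the shorter list and 115 and 431 in the longer. The averaged log2 fold change was 1.60 ± 0.23 (edgeR adjusted p = 0.00418), and the edgeR adjusted p was 0.571 without the chemistry term.

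Serpine2 (protease nexin-1, an inhibitor of thrombin and plasminogen activators) ranged from 122 through 175 to 669 CPM in control and from 282 through 354 to 988 in DN. Its log2 fold change was 1.08 ± 0.17 (edgeR adjusted p = 0.0053). Like Rgcc, it was highest in the shorter-list libraries of both genotypes. In glomerular cells it rose by 1.77 ± 0.18 (edgeR adjusted p = 2.05e-05). The difference between the cell sets was -0.94 ± 0.19 (edgeR adjusted p = 0.0111), a call lost in 6 of 18 alternatives, with an edgeR adjusted p of 0.101 without DN male 12 weeks replicate 1.

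**Figure D3:**
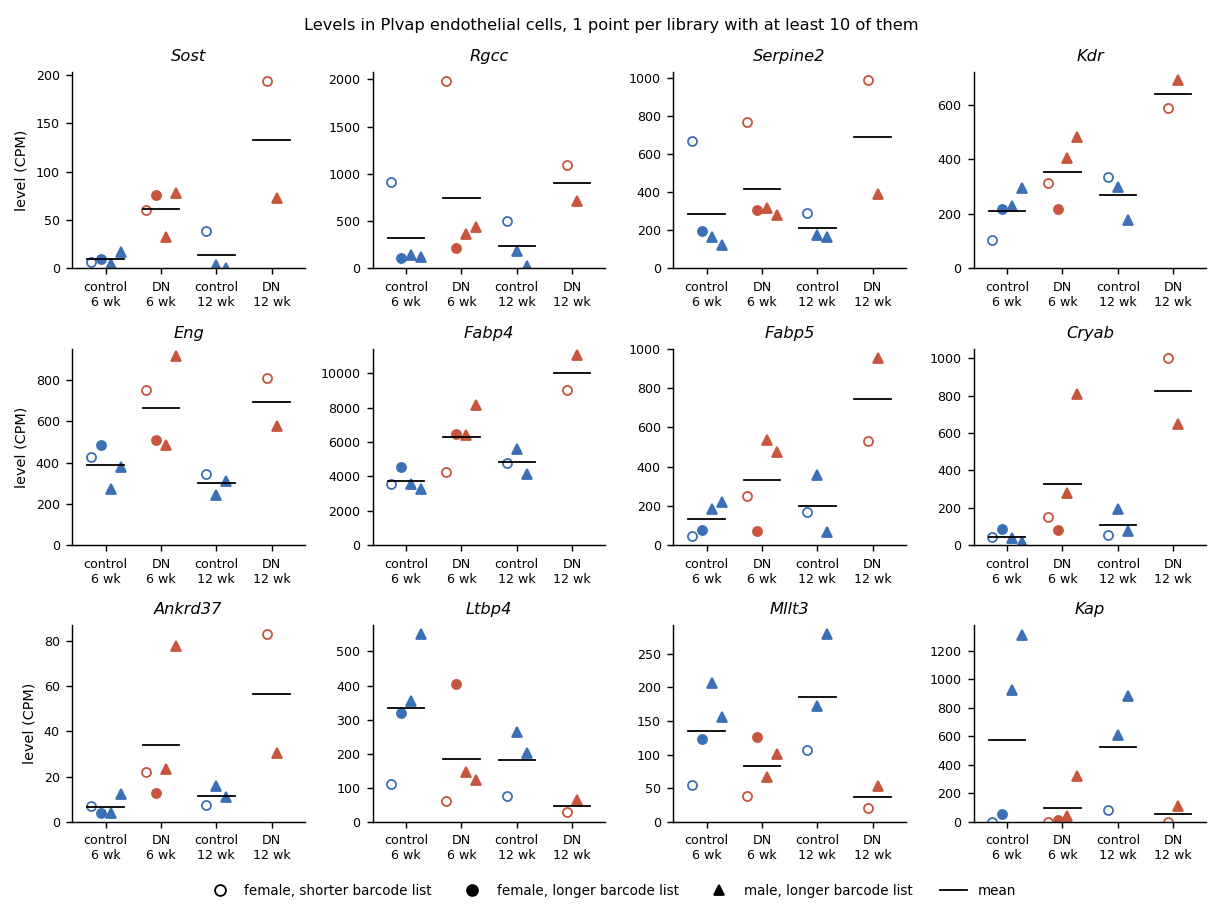
Levels (CPM) of 12 genes in Plvap endothelial cells by genotype and age; each point is 1 of 13 libraries, shape and fill give sex and chemistry, and lines are means. Sost lies at 0 to 38.2 CPM in control and at 32.6 to 193 in DN, and Kap is low in DN libraries and in females of both genotypes.

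Receptors of endothelial growth factors were tested within a list of 18 VEGF and angiopoietin genes. Of 16 tested, Kdr rose and no other passed, 7 had an estimate above 0, and the list median was -0.06. Kdr ranged from 103 through 230 to 336 CPM in control and from 218 through 444 to 691 in DN, with a log2 fold change of 0.96 ± 0.18 (edgeR adjusted p = 0.0194). The genotypes overlapped. Within the small sets of the same sex, age and chemistry, each DN library lay above the control libraries. How many of all tested genes did so was not counted. Flt1 (VEGF receptor 1), the list's other main receptor, had medians of 709 and 754 CPM (0.05 ± 0.16), and Nrp1, a co-receptor, 505 and 513 (-0.09 ± 0.16). Tek, the angiopoietin receptor, had 268 and 279 CPM (0.03 ± 0.17). In glomerular cells the estimate for Kdr was 0.21 ± 0.10 (edgeR adjusted p = 0.485), and the effect in Plvap cells was larger by 0.67 ± 0.16 (edgeR adjusted p = 0.0432), a call lost in 11 of 18 alternatives.

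Eng (endoglin), a co-receptor for TGF-beta and BMP9, was among the 3 called genes (of 31) whose genotypes did not overlap, beside 15 of all 7447 tested genes (0.201%). It ranged from 244 through 344 to 484 CPM in control and from 486 through 663 to 918 in DN, with a log2 fold change of 0.97 ± 0.18 (edgeR adjusted p = 0.0194). The other 2 were Ppp1r2, an inhibitor subunit of protein phosphatase 1 (246 to 532 CPM in control, 553 to 1202 in DN; 1.08 ± 0.17, edgeR adjusted p = 0.00748), and Ptgs1 (cyclooxygenase 1; 11.2 to 41.4 and 45.0 to 131; 1.26 ± 0.25, edgeR adjusted p = 0.0314). In the list of 21 TGF-beta and BMP genes, Eng was the 1 call of 18 tested, 11 had estimates above 0, and the median was 0.15. The immediate targets of BMP9 and endoglin had estimates of 0.31 ± 0.18 (Id1), 0.51 ± 0.16 (Id2) and 0.32 ± 0.18 (Id3), none of which passed. The ligand gene Tgfb1 had 62.6 and 108 CPM at the median (0.68 ± 0.19, edgeR adjusted p = 0.196).

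Among the 19 endothelial identity genes, Eng and Ctla2a rose, 16 estimates lay above 0 and the median was 0.16. Ctla2a, a cathepsin inhibitor, ranged from 179 through 315 to 1025 CPM in control and 578 through 643 to 1048 in DN (1.08 ± 0.23, edgeR adjusted p = 0.0453, lost in 18 of 25 alternatives). The most abundant members had estimates of 0.26 ± 0.14 (Ly6c1), -0.11 ± 0.18 (Ptprb), 0.16 ± 0.17 (Emcn) and 0.27 ± 0.15 (Egfl7), none called. Cldn5, the tight junction gene of arterial and vasa recta cells, had 806 CPM at the median in control and 342 in DN (-0.92 ± 0.33, edgeR adjusted p = 0.368), with libraries from 34.5 to 1621. Cd34 had 545 and 746 CPM (0.59 ± 0.16, edgeR adjusted p = 0.144).

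Fatty acid handling had the most abundant of the called genes. Fabp4 ranged from 3279 through 4147 to 5578 CPM in control and from 4233 through 7311 to 11057 in DN. Its log2 fold change was 0.91 ± 0.15 (edgeR adjusted p = 0.00748), and 5 of the 6 DN libraries lay above every control library. The share of all tested genes with such a near separation was not counted. Fabp5, a second fatty acid chaperone, ranged from 48.3 through 168 to 359 and from 73.5 through 503 to 956 CPM (1.50 ± 0.26, edgeR adjusted p = 0.00901). These were the 2 calls among 12 tested genes of the lipid list, of which 6 had estimates above 0, with a median of 0.06. Gpihbp1, the capillary anchor of lipoprotein lipase, had medians of 181 and 384 CPM (1.13 ± 0.28, edgeR adjusted p = 0.0965), and the fatty acid transporter Cd36 had 34.8 and 59.1 (0.62 ± 0.38). Mgll, which splits monoacylglycerols, was outside the list and rose, from 115 through 232 to 360 CPM to 205 through 418 to 800 (1.05 ± 0.17, edgeR adjusted p = 0.00792). Pltp, the phospholipid transfer protein, fell, from 153 through 379 to 524 CPM to 27.6 through 237 to 312 (-0.95 ± 0.19, edgeR adjusted p = 0.0266).

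Glucose use genes had mostly positive estimates. Of 15 tested, 13 had estimates above 0 and the median was 0.70, beside 0.01 over all genes, but only Pkm (pyruvate kinase M) passed, with 252 through 372 to 476 CPM in control and 297 through 677 to 896 in DN (0.96 ± 0.18, edgeR adjusted p = 0.0219). Ldha (lactate dehydrogenase A) had medians of 393 and 602 (0.78 ± 0.17, edgeR adjusted p = 0.0569), and Akr1b3 1304 and 1722 (0.96 ± 0.35, edgeR adjusted p = 0.368). Slc2a1, the endothelial glucose transporter GLUT1, had 11.2 and 38.7 CPM (1.26 ± 0.41, edgeR adjusted p = 0.316). Txnip, a gene that glucose induces, had 1725 and 1328 (-0.32 ± 0.15, edgeR adjusted p = 0.579). Slc2a1 and Akr1b3 were more often seen in cells with Slc14a1 (26.6% against 9.14% for Slc2a1, 81.0% against 32.4% for Akr1b3), which were also the deeper cells, and the part of the mixture of cells in these values was not tested.

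The hypoxia list had 1 call among 12 tested, Ankrd37, a target of hypoxia-inducible factors. It ranged from 3.73 through 7.65 to 15.8 CPM in control and from 12.7 through 26.8 to 82.9 in DN (2.09 ± 0.43, edgeR adjusted p = 0.0358). Of the list, 9 estimates lay above 0 and the median was 0.13. The factor genes themselves had medians of 659 and 571 CPM for Epas1 (-0.03 ± 0.16) and 215 and 283 for Hif1a (0.77 ± 0.25, edgeR adjusted p = 0.321). Ankrd37 is a low gene, seen in 9.03% of the cells.

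Arterial genes lay mostly below 0. Of 14 tested, 3 had estimates above 0, the median was -0.43, and Ltbp4, which binds latent TGF-beta and helps to assemble elastic fibres, fell. It ranged from 76.5 through 263 to 551 CPM in control and from 27.6 through 93.8 to 403 in DN (-1.40 ± 0.29, edgeR adjusted p = 0.0358). The DN library at 403 CPM, female 6 weeks replicate 2, was also the one in which 44.0% of cells had Mgp, against 1.27% to 12.0% in the other 5 and 1.72% to 25.6% in control. That library also had the deepest cells of the 13, with a median of 15671 UMIs. The 4 shorter-list libraries, with medians of 1556 to 2275 UMIs, had the lowest shares of cells with Mgp (1.27% to 2.13%). The parts of depth, chemistry and the Mgp cells in this result were not tested. The Ltbp4 call was lost in 13 of 25 alternatives. The more abundant members had estimates of -0.15 ± 0.17 (Sox17), -2.10 ± 0.83 (Mgp), -0.56 ± 0.19 (Fbln5) and -1.08 ± 0.26 (Fbln2, edgeR adjusted p = 0.0844). In glomerular cells Ltbp4 fell by 0.93 (edgeR adjusted p = 0.0138).

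The other vascular lists held few calls. Of 4 vasa recta genes tested none passed, 2 lay above 0 and the median was -0.20, with Slc14a1 from 238 through 497 to 2437 CPM in control and 182 through 282 to 1145 in DN (-0.45 ± 0.38). Aqp1 had medians of 1483 and 2238 (0.33 ± 0.28) and Scin 443 and 316 (-0.59 ± 0.32). Of 8 venous and medullary genes tested none passed and 5 lay above 0, with a median of 0.34. Of 4 cortical peritubular genes Kdr passed, 3 lay above 0 and the median was 0.45, with Igfbp3 at medians of 601 and 550 CPM (-0.24 ± 0.25) and Igfbp5 at 339 and 698 (0.86 ± 0.32, edgeR adjusted p = 0.397). Of 5 glomerular genes Sost passed and 4 lay above 0 (median 0.53). Plat had an estimate of -0.20 ± 0.23 at 6 weeks and 1.56 ± 0.30 at 12 weeks (edgeR adjusted p = 0.0515 at 12 weeks). The 1 lymphatic gene tested, Flt4, had 0.44 ± 0.22.

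The barrier and flow genes did not pass except for Ptgs1. Of 15 genes of fenestrae, caveolae and junctions none was called, 6 lay above 0 and the median was -0.02. Ehd4 had medians of 1162 and 1256 CPM (0.13 ± 0.14), Cav1 (caveolin 1) 364 and 264 (-0.34 ± 0.17) and Cavin3 826 and 738 (-0.02 ± 0.15). Of 11 genes of nitric oxide, endothelin and flow 9 lay above 0 with a median of 0.05. The flow-induced factor Klf2 had 2856 and 2561 CPM (0.00 ± 0.22), Nos3, the endothelial nitric oxide synthase, 105 and 122 (0.16 ± 0.23), and Edn1 (endothelin 1) 213 and 179 (-0.47 ± 0.23). Of 11 haemostasis and complement genes none passed and 8 lay above 0 (median 0.26).

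Antigen presentation and interferon genes had no call among 24 tested, and their estimates differed by age as values. At 6 weeks 12 of 24 lay above 0 with a median of 0.00, and at 12 weeks 1 of 24 did, with a median of -0.65, beside 0.02 over all genes at 12 weeks. Ifit3 had -0.22 at 6 and -1.69 at 12 weeks, Isg15 -0.10 and -1.26, and the class II gene H2-Aa 1.35 and -1.59. No gene passed the test of the difference between ages. Averaged over ages 6 lay above 0 and the median was -0.30. Of 9 leukocyte adhesion genes tested none passed and 4 lay above 0 (median -0.22), with Vcam1 at medians of 102 and 43.8 CPM (-1.01 ± 0.35, edgeR adjusted p = 0.35) and Icam1 at 55.2 and 94.7 (0.35 ± 0.44).

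Matrix genes had 1 call, Adamts1, a secreted protease that cleaves proteoglycans, which ranged from 22.4 through 71.8 to 174 CPM in control and 55.3 through 160 to 243 in DN (1.22 ± 0.26, edgeR adjusted p = 0.0453, lost in 18 of 25 alternatives). Of 18 tested 15 lay above 0, with a median of 0.30. The collagen IV genes Col4a1 and Col4a2 had estimates of 0.38 ± 0.18 and 0.52 ± 0.20, neither called, and Timp3 -0.15 ± 0.13. Of 20 targets of MRTF and SRF, the actin-responsive factors on which the study centres in glomeruli, none passed, 13 lay above 0 and the median was 0.10. Actb had medians of 3288 and 3388 CPM (0.15 ± 0.17), Actg1 1807 and 1888 (0.11 ± 0.16) and Ctgf 215 and 81.4 (-1.26 ± 0.38, edgeR adjusted p = 0.23).

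Insulin, growth factor and leptin genes gave no call among 17 tested, with 8 above 0 and a median of -0.07. Lepr, the leptin receptor, had medians of 22.8 CPM in control and 12.9 in DN (-0.99 ± 0.47, edgeR adjusted p = 0.57). Igfbp7 had 1070 and 1076 (0.02 ± 0.17), and Pik3r1, a regulatory subunit of PI3 kinase, 114 and 85.4 (-0.83 ± 0.19, edgeR adjusted p = 0.0717). Of 5 proliferation genes tested none passed and 4 lay above 0 (median 0.43), and of 19 immediate early genes none passed and 13 lay above 0 (median 0.14). Among other cell types, 2 podocyte genes, 2 mural genes and 6 loop and distal tubule genes could be tested with no call, and no immune gene reached the filter.

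**Figure D4:**
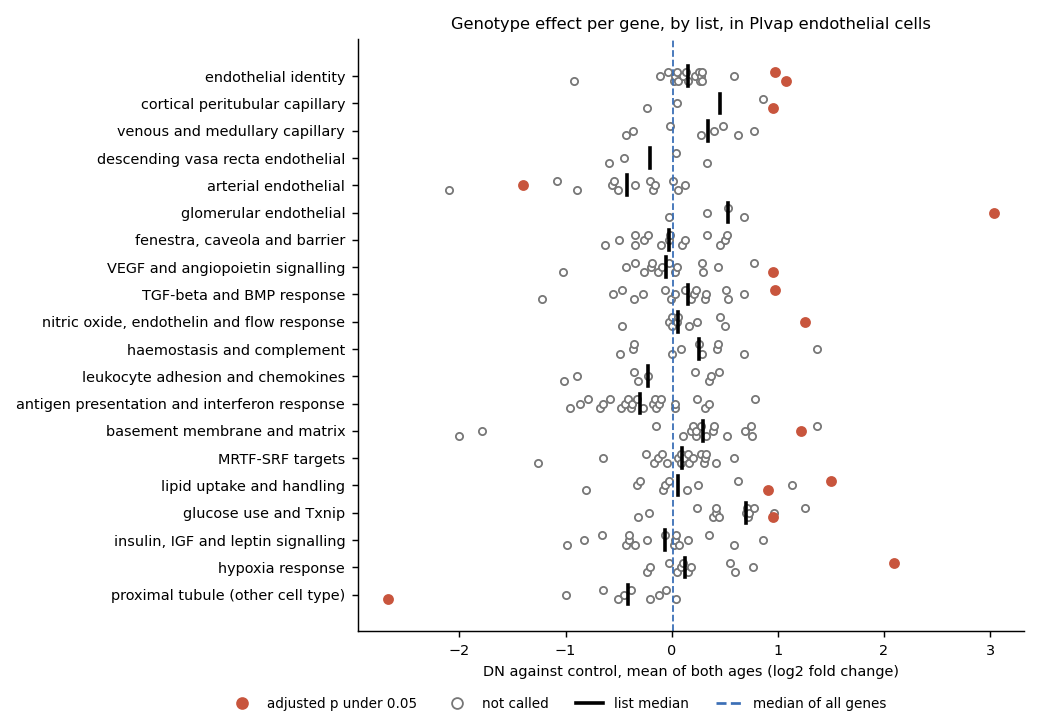
Log2 fold change of DN against control, averaged over both ages, for each tested gene of 20 lists; filled points passed an edgeR adjusted p of 0.05, black bars are list medians and the dashed line is the median of all genes. The glucose list has its median at 0.70 and the arterial list at -0.43, each with 1 called gene.

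The remaining called genes lie outside these lists, and several are named only to complete the 31. Cryab, the small heat shock protein alpha B-crystallin, ranged from 14.7 through 53.5 to 195 CPM in control and from 78.6 through 465 to 1002 in DN (2.68 ± 0.45, edgeR adjusted p = 0.00796). Ckb (brain creatine kinase) ranged from 30.6 through 89.4 to 293 and from 154 through 228 to 328 CPM (1.39 ± 0.23, edgeR adjusted p = 0.00748). Ltc4s (leukotriene C4 synthase) had medians of 15.8 and 80.0 CPM (2.19 ± 0.41, edgeR adjusted p = 0.0185), but 43 of its 164 DN UMIs came from 1 cell. Ramp3, a partner of the calcitonin receptor family, had medians of 85.4 and 209 CPM (0.95 ± 0.18). Fam167b, Sgk1 (a steroid-induced kinase), Nes (nestin), Marcksl1 and Jup (plakoglobin) also rose, with estimates between 0.81 and 1.14.

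Genes that fell were fewer. Mllt3 ranged from 55.2 through 157 to 279 CPM in control and from 20.7 through 60.1 to 127 in DN (-1.37 ± 0.24, edgeR adjusted p = 0.00922), and Prune2 from 0 through 41.7 to 67.1 and 0 through 8.57 to 20.4 (-2.43 ± 0.44, edgeR adjusted p = 0.0161). Nuak1, a kinase of the AMPK family, had medians of 172 and 62.4 CPM (-1.42 ± 0.30, edgeR adjusted p = 0.038), Tspan8 1140 and 726 (-0.95 ± 0.21, edgeR adjusted p = 0.0471) and Thbs2 (thrombospondin 2) 182 and 119 (-1.06 ± 0.23, edgeR adjusted p = 0.0488). Of the 31 called genes, 29 had a ratio of the same direction in both chemistries taken alone. They were called on these same libraries, so this is no separate support for the calls, and the share over all genes was not counted. Thbs2 had opposite directions. Kap had 42.1 CPM in control and no UMI in DN of the shorter list, and so no ratio there.

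Kap, the androgen-regulated protein of the proximal tubule, also fell, and it is a transcript of another cell type. It had 0 and 52.3 CPM in control females and 927 and 1312 in control males at 6 weeks, against 0 and 12.7 in DN females and 44.2 and 321 in DN males. The averaged log2 fold change was -2.67 ± 0.40 (edgeR adjusted p = 0.0053). Over all other barcodes Kap had means of 7765 CPM in control and 2068 in DN, and in glomerular cells it was lower in DN by a similar amount (-1.94 ± 0.36, edgeR adjusted p = 0.00623, difference between the sets -0.43 with edgeR adjusted p = 0.665). Of the 10 tested proximal tubule genes 1 lay above 0, with a median of -0.42, and Kap was the 1 call. The part of free tubule RNA in these values was not tested.

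At 6 weeks alone 6 of 7447 genes passed (0.0806%): Sost rose, and Kap and 4 haemoglobin genes were lower in DN. The call at this age was lost in 2 of 25 alternatives for Sost and in 12 of 25 for Kap. The haemoglobin calls rest on 2 control cells. At that age control female replicate 2 had 4449 haemoglobin UMIs in 1 cell and control male replicate 1 had 5080 of 5088 in 1 cell, while the other libraries had 0 to 11. Hba-a1 thus stood at 1266 and 1048 CPM in those libraries, at 6.90 and 0 in the other control libraries and at 0 to 5.51 in DN at that age. Hba-a2 and Hbb-bt had 0 UMIs in all 4 DN libraries and were at least 337-fold and at least 126-fold higher in control, counted against a floor of 3 UMIs over the DN group. The alpha and the beta genes are near-identical pairs whose reads can be split between copies. With these 2 barcodes left out, an alternative chosen after seeing the data, 1 gene passed at 6 weeks, Sost (2.72, edgeR adjusted p = 0.0159), Kap had an edgeR adjusted p of 0.0787, and 30 genes passed in the average, 29 of them among the 31.

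At 12 weeks alone no gene passed in the main edgeR fit (0 of 7447, 0%), while 509 had an unadjusted p under 0.05 and DESeq2 called 15. Other edgeR settings did call genes: 24 with at least 1 Plvap UMI, 13 with the replicate number as a block and 7 without the 2 haemoglobin barcodes. Serpine2, Ckb, Sost, Mgll, Ppp1r2 and Plat shared the lowest edgeR adjusted p, 0.0515, all with estimates above 0. No gene passed the test for a genotype effect that differed between 12 and 6 weeks (0 of 7447, 0%; edgeR, 252 with an unadjusted p under 0.05, DESeq2 also 0). None passed the test for an effect that differed between males and females (0 of 8337, 0%; edgeR, 315 with an unadjusted p under 0.05, DESeq2 also 0). These counts of 0 do not show that effects were alike at both ages or in both sexes. The 2 DN libraries at 12 weeks were 1 female of the shorter and 1 male of the longer barcode list.

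Sex and age by themselves gave few calls. Between males and females 3 of 8337 genes passed (0.036%): Xist, the RNA of X inactivation, with 685 to 1152 CPM in every female library and 0 in every male one, its antisense partner Tsix, and 1 gene without a name. Against a floor of 3 UMIs over the males, Xist was at least 1045-fold and Tsix at least 34.2-fold higher in females. The sexes of the 13 libraries therefore matched their labels. The count was 33 without the chemistry term and 1 to 9 when single libraries were left out, with 1 gene when either control female 6-week library, control male 12 weeks replicate 1 or DN female 6 weeks replicate 1 was left out. Between 12 and 6 weeks 1 of 8337 genes passed (0.012%), the cell cycle inhibitor gene Cdkn1a (p21), which fell by 1.49 ± 0.25 on the log2 scale (edgeR adjusted p = 0.0467). It ranged from 233 to 1966 CPM at 6 weeks and from 166 to 438 at 12 weeks, and it did not pass without the chemistry term or with DESeq2's size factors in edgeR. The call was also lost when any of 6 libraries was left out: either control female 6-week library, control male 6 weeks replicate 1, either control male 12-week library, or DN female 6 weeks replicate 2.

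The genotype effects of the Plvap cells were set against those of the glomerular cells of the same mice in 1 fit with the library as a block. Of 8960 genes, 49 had effects that differed (0.547%), 32 of them higher in the Plvap cells. In the glomerular cells by themselves 133 of 9647 genes passed (1.38%). The smallest p among genes with the higher effect in Plvap cells belonged to Calca, the gene of calcitonin and its related peptide, for which it was the glomerular level that fell (-2.33 ± 0.36, edgeR adjusted p = 0.0013, from 92.3 to 23.6 CPM) while the Plvap cells had means of 197 and 229 CPM (difference 2.06 ± 0.25, edgeR adjusted p = 7.82e-06), with 89 of its 441 DN UMIs in 1 Plvap cell. Cryab and Fabp5 were the opposite case. Cryab was higher in the Plvap effect by 2.35 ± 0.32 (edgeR adjusted p = 5.66e-05) with means of 20.7 and 22.9 CPM in glomerular cells, and Fabp5 by 1.32 ± 0.19 (edgeR adjusted p = 9.98e-05) with 168 and 170. Both held in all 18 alternatives run for this test.

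Ckb (1.08 higher, edgeR adjusted p = 0.00202) and the imprinted gene Peg3 (2.14 higher, edgeR adjusted p = 0.000925) followed, though 31 of the 94 DN UMIs of Peg3 came from 1 cell. Dlk1, a second imprinted gene, passed (edgeR adjusted p = 0.00658), but 75 of its 77 DN UMIs came from 1 cell. Within the lists, Igfbp5 (1.32, edgeR adjusted p = 0.00876) and Ednrb, the endothelin B receptor (1.12, edgeR adjusted p = 0.00687), had higher effects in the Plvap cells, and the calls were lost in 3 and 2 of 18 alternatives. Higher effects that were lost more often were those of Thbd (thrombomodulin; 0.65, edgeR adjusted p = 0.0239, lost in 9 of 18), Hspg2 (perlecan; 0.76, edgeR adjusted p = 0.0239, 9 of 18), Tgfb1 (0.71, edgeR adjusted p = 0.036, 13 of 18), Ldha (0.61, edgeR adjusted p = 0.049, 11 of 18) and Pkm (0.65, edgeR adjusted p = 0.0494, 14 of 18). All 5 of these calls were lost without DN male 12 weeks replicate 1. The arterial gene Gja4 (connexin 37) had the lower effect in Plvap cells (-0.61, edgeR adjusted p = 0.0239, lost in 4 of 18). In the other direction Slco2a1, a prostaglandin transporter, rose in glomerular cells (0.83 ± 0.16, edgeR adjusted p = 0.00769, 225 to 391 CPM) and had means of 226 and 152 CPM in Plvap cells (difference -1.55 ± 0.22, edgeR adjusted p = 9.55e-05). The class I gene H2-Q7 differed by -1.28 (edgeR adjusted p = 0.00038). The 4 haemoglobin genes led the list by p and rest on the 2 cells named above. Without those 2 barcodes 42 genes differed, 41 of them among the 49, and the count ranged from 13 to 88 when single libraries were left out, with 13 without DN male 12 weeks replicate 1, 19 without control male 6 weeks replicate 1, 20 without control male 12 weeks replicate 1 and 88 without either of the female 6 weeks replicate 2 libraries. DESeq2 called 9.

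**Figure D5:**
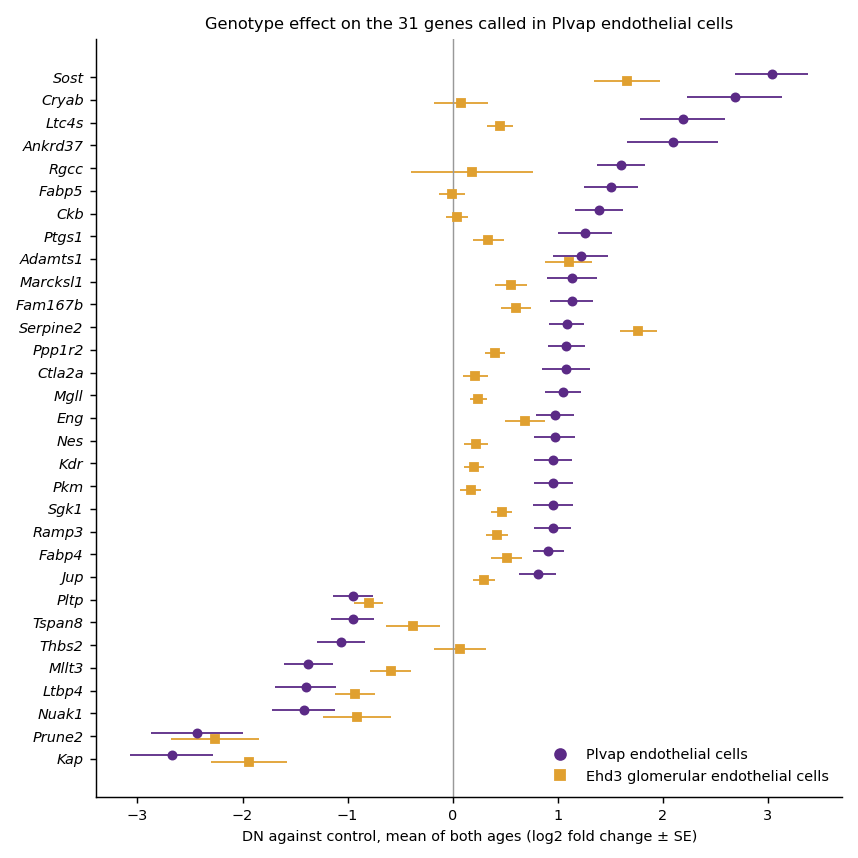
Log2 fold change ± SE of DN against control, averaged over both ages, for the 31 genes called in Plvap endothelial cells (circles), with the same genes in glomerular endothelial cells (squares; Ankrd37 was not tested there). Cryab and Fabp5 lie at 2.68 and 1.50 in Plvap cells and at 0.08 and 0.00 in glomerular cells, while Serpine2 lies further right in the glomerular cells.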

How the data were processed

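Single-cell suspensions of the kidneys of 16 BTBR mice were sequenced with 2 versions of a droplet kit, assigned to libraries here from shared barcodes. The deposited count matrices hold UMI counts per gene and barcode, which the authors made with Cell Ranger 3.0.2 on mm10, without normalization; 31053 features were listed per library and all count columns were used. Cells and gene lists were chosen with earlier results of these data known. Doublets were limited by the upper limit of 7000 detected genes and by the marker genes required at 0, with no caller. Raw counts of the cells were summed per library (89456 to 1006855 UMIs in libraries with at least 10 cells) and tested in R 4.3.3 with edgeR 4.0.16 (TMM, filterByExpr, quasi-likelihood F-test, Benjamini-Hochberg adjustment over all genes tested, threshold 0.05). The terms were genotype within age, sex within age and chemistry. Sex, age and the genotype effect by sex were tested on group means with chemistry. The glomerular comparison added the library as a block. Shares were compared by exact permutation within sex and age, with all arrangements enumerated in Python 3.11.15 with numpy 2.4.6. The fits were tested on simulated data. At 2-fold the averaged genotype comparison recovered 115 of 186 changed genes with 15 false calls, and the 12-week comparison 12 of 186 with 0. The sex comparison recovered 5 of 195 and the genotype effect by sex 0 of 195. At 4-fold the averaged comparison recovered 185 of 192 with 6 false calls, and the 12-week comparison 137 of 192 with 4. DESeq2 1.42.0, other size factors, no filter, other cell limits, the replicate number as a block and leaving out each library were tried as alternatives. Named genes were every called list member, up to 4 abundant members per list, and the 12 called genes with the smallest p per direction (6 for sex, age and the glomerular comparison). Genes without a name were counted only. No cell clustering was done, and coordinates are from GENCODE M21 (GRCm38).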

Additional observations from a re-analysis of the deposited data

Results flagged for a closer look

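In 7 cases a single library stood far from the others of its genotype and age at 6 weeks by Dixon's test, among 78 sets of 4 libraries, where about 1 in 20 sets stands apart by chance. Rgcc had 911 CPM in control female replicate 1 (the other 3 had 106 to 144) and 1979 in DN female replicate 1 (213 to 436). Serpine2 had 669 CPM in control female replicate 1 (122 to 196) and 766 in DN female replicate 1 (282 to 316). Both libraries are of the shorter barcode list, and the part of the chemistry in these levels was not tested. Ankrd37 had 77.7 CPM in DN male replicate 2 (12.7 to 23.3), and Kap 321 in the same library (0 to 44.2). Hbb-bs had 16.5 CPM in DN female replicate 1 (0 to 2.33).

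The genotype effect differed between Plvap and glomerular endothelial cells for 49 genes by the test of that difference. Higher effects in Plvap cells were found for Calca (edgeR adjusted p = 7.82e-06), Cryab (5.66e-05), Fabp5 (9.98e-05), Peg3 (0.000925), Ckb (0.00202) and Dlk1 (0.00658). Lower effects were found for Hbb-bs (edgeR adjusted p = 2.59e-11), Hba-a1 (3.23e-11), Hba-a2 (2.89e-10), Hbb-bt (9.69e-09), Slco2a1 (9.55e-05) and H2-Q7 (0.00038). Nearly all haemoglobin UMIs came from 2 control cells.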

How the results depend on the processing

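Counts of called genes moved with several choices. For genotype at 6 weeks (6 genes) the count was 0 without the chemistry term, 3 with the longer-list libraries, 2 with DESeq2, 54 without the filter, 14 with at least 3 Plvap UMIs and 1 without the 2 haemoglobin barcodes, an alternative chosen after seeing the data. At 12 weeks (0 genes) it was 15 with DESeq2, 88 without the filter, 2 with libraries of at least 1 cell, 24 with at least 1 Plvap UMI and 7 without the 2 barcodes. Averaged over ages (31 genes) it was 1 without the chemistry term, 2 with the longer list, 48 with DESeq2 (26 shared), 146 without the filter, 20 with libraries of at least 1 and also of at least 20 cells, and 15 with at least 3 Plvap UMIs. Without the filter it was also 13 for the difference between ages and 1 between sexes (0 each), 27 for sex (3), 42 for age (1) and 106 for the glomerular comparison (49). Without the chemistry term 33 genes differed by sex and 0 by age, where DESeq2 called 4 and its size factors in edgeR 0. The glomerular comparison gave 30 with the longer list and 9 with DESeq2, and there the estimate for Hba-a2 was 0.10 without the 2 barcodes, opposite in sign. The differences in share turned to 0.230 and 1.64 percentage points after thinning. The cause of these moves was not tested.

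Leaving out single libraries gave 1 to 30 genes at 6 weeks, 0 to 21 at 12 weeks, 0 to 71 for the average, 0 to 1 for the difference between ages, 0 to 0 between sexes, 1 to 9 for sex, 0 to 3 for age and 13 to 88 for the glomerular comparison. At 6 weeks it was 26 without control and 30 without DN female 6 weeks replicate 2, 1 without DN male 6 weeks replicate 1, 2 without control male 6 weeks replicate 1 and 3 when control male 12 weeks replicate 1 was dropped. For DN at 12 weeks the counts were 19 and 21 without the same female libraries, 5 and 7 without control male 6 weeks replicates 1 and 2, 2 and 9 without those of DN, and 1 without control male 12 weeks replicate 1. By sex it was 9 without control and 7 without DN male 6 weeks replicate 2. The difference in share ranged from -0.378 to 0.278 points of quality-filtered and from -2.22 to -0.261 of endothelial barcodes. It was above 0 among quality-filtered barcodes without control female 6 weeks replicate 1 (0.0854), control male 6 weeks replicate 1 (0.278), DN female 12 weeks replicate 2 (0.0798) or DN male 12 weeks replicate 2 (0.0965). For single genes, 754 of 1155 such fits and 472 of 681 other alternatives kept the call.

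The replicate numbers were not taken as pairs, since no label ties them to a shared litter or day and 1 of the 4 sets of same sex and age gave a correlation near 0: deviations from the group means correlated at 0.795 and 0.591 in females, where the number coincides with the chemistry, and at 0.538 and 0.0484 in males. All 4 lay above 0, so each library correlated best with the other genotype's library of its own number, a hint from the data and not the design. Both 12-week sets included a library with 4 cells. At 6 weeks the libraries numbered 1 had 828 to 977 endothelial barcodes and those numbered 2 had 293 to 437. At 12 weeks they had 499 to 1386 and 63 to 179. Whether the numbers mark a shared batch was not tested. With the replicate block 16 genes passed at 6 weeks, 13 at 12 weeks and 85 in the average, all 31 included. The age comparison averaged over both sexes could not be fitted within the longer list, since no female 12-week library there had 10 cells. Age in males alone was not tested there. Depth limits these values: 3 libraries held 4 to 7 cells.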
